A study of Mus musculus with 18 samples.

Results

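The proximal and distal colon of mice lacking Rab11-FIP1 were compared by RNA sequencing of epithelium, 3 libraries for each segment. Rab11-FIP1, also called Rab coupling protein, is an adaptor that links the small GTPase Rab11 to the recycling endosomes through which epithelial cells return membrane proteins to their surface. The 6 libraries were chosen by their labels (Rab11-FIP1 KO, proximal or distal colon) out of 18 in the series, and all genes in the count table were considered. The other 12 libraries come from the same segments of wild type mice, titled BL6, and of Rab11-FIP2 KO mice, again 3 for each genotype and segment. All 18 are fresh tissue labelled as epithelial cells with no treatment. The epithelium was freed with micro forceps in cold buffer holding 30 mM EDTA, and the libraries were made from poly-A RNA with reads of 150 nt. The strain of the knockout mice, the altered exons, and the age and sex of the animals are not given in the sources used here. The labels do not state whether replicate libraries stem from different animals. All p-values below therefore measure the spread between libraries, which may in part be technical.

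The colon is patterned along its length. The proximal colon of the mouse receives the contents of the small intestine and caecum, takes up short-chain fatty acids and the bile acids that escaped the ileum, and is rich in detoxifying enzymes. The distal colon recovers sodium and water through the epithelial sodium channel under the control of aldosterone, and carries a differently glycosylated mucus over a denser, firmer content. Position along the gut is held by HOX transcription factors, whose genes lie in 4 clusters and are used in an order that follows their place in the cluster, the last members toward the tail end. In a bulk sample, fewer cells of a type and less RNA per cell cannot be told apart.

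The targeted transcript checked the labels. Rab11fip1 (ENSMUSG00000031488, chromosome 8, 27138773 to 27174646, minus strand, GRCm38) was at 67.0, 82.5 and 53.0 CPM (counts scaled to the same library total) in the proximal and 50.6, 48.4 and 46.4 in the distal FIP1 knockout libraries. The 12 libraries of the other genotypes held 92 to 175 CPM, so the genotypes did not overlap, but counts of the transcript remained in every knockout library. Which exons the allele removes is not known here, so the remaining counts say nothing about protein. Between the segments Rab11fip1 differed by a log2 fold change of 0.48 ± 0.22 (SE; positive values are higher in proximal), adjusted p = 0.27. The 6 libraries held 12116329 to 20606382 counts, with 11.5% to 19.7% in mitochondrially encoded genes, and the first principal component (52.3% of the variance) separated the segments. On the second (18.1%) proximal library 2 and distal library 2 lay on one side, at -50.9 and -24.3, and the other four between 0.082 and 33.6. Of 15 pan-epithelial markers only Cdx2 passed the test, and Epcam was at means of 1669 CPM in proximal and 1680 in distal.

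Promoters of 5 genes that differed between the segments are shown as examples of the positional and transport genes described below. They are not a sample of those genes. Each of the 5 holds a match to 1 of the 2 motifs marked, while the shares over all promoters, given below, are far smaller. Each runs from 250 bases before to 50 bases after the start of transcription in RefSeq (GRCm38.p6), 5′ to 3′ on the gene's own strand. Capitals mark matches on either strand to TTTTAT (reverse complement ATAAAA), a core letter order for CDX and posterior HOX proteins, and to CAAAGTC (reverse complement GACTTTG), a core for HNF4. The 2 motifs do not overlap in these windows. The first 2 genes were higher in distal and the last 3 in proximal.
Hoxd13, chr2:74667975-74668274, plus strand: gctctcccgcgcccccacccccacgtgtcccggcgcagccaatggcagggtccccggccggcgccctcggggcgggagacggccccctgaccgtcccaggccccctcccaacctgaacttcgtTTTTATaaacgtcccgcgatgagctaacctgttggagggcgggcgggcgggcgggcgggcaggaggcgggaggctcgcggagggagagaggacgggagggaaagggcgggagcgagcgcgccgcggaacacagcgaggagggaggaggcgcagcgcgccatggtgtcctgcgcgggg
Trpv6, chr6:41636356-41636655, minus strand: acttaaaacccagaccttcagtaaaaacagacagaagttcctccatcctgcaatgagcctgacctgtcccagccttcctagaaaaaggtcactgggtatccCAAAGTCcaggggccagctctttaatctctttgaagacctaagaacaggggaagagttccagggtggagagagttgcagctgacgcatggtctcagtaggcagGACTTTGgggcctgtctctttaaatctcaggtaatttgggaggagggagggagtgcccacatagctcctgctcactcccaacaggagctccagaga
Hoxb8, chr11:96281655-96281954, plus strand: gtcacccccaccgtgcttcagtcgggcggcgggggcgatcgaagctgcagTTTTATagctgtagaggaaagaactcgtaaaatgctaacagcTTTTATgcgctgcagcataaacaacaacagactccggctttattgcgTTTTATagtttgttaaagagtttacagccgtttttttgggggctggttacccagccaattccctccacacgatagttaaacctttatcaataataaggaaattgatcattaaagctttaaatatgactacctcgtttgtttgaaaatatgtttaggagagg
Slc51a, chr16:32487830-32488129, minus strand: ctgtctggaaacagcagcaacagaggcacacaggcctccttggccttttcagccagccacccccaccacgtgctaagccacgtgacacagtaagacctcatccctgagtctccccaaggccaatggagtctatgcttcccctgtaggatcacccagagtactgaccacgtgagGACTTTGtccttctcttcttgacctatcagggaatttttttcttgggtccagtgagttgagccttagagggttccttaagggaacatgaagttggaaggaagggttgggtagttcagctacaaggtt
Slc10a2, chr8:5105238-5105537, minus strand: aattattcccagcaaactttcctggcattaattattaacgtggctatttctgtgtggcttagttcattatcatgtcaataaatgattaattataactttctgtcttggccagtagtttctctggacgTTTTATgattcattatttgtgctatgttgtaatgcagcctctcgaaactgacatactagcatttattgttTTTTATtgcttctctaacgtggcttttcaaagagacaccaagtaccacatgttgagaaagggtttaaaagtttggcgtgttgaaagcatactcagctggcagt
Hoxb8 holds 3 TTTTAT matches, which begin 200, 158 and 111 bases before the start, Slc10a2 holds 2 and Hoxd13 holds 1. Trpv6 holds 2 CAAAGTC matches, 149 and 46 bases before the start, and Slc51a holds 1 at 77 bases. Over all 27025 promoters available, 19.1% hold TTTTAT and 4.36% hold CAAAGTC. Promoters were found for 392 of the 521 genes higher in proximal and 442 of the 646 higher in distal, and TTTTAT stood in 12.2% and 16.5% of them, beside 10.6% of the 11656 tested genes with a promoter. For CAAAGTC the shares were 6.12% and 4.98%, beside 4.02%. A match describes the letters only.

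Between proximal and distal FIP1 knockout epithelium 1167 of 17692 genes tested passed an adjusted p of 0.05 in edgeR's quasi-likelihood test (6.6%). These genes are referred to as called. Of them 521 were higher in proximal (2.94%) and 646 in distal (3.65%), and 2892 genes had an unadjusted p under 0.05. At least 8-fold differences were found for 80 proximal and 184 distal genes. The libraries of the segments did not overlap for 4112 genes (23.2%), of which 1933 were higher in proximal (10.9%) and 2179 in distal (12.3%). Without distal library 3 the count fell to 682 genes, and 591 of the 1167 stayed called when any 1 of the 6 libraries was left out. Every called gene named from here on is among those 591 unless its paragraph gives the library that decides it.

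**Figure D1:**
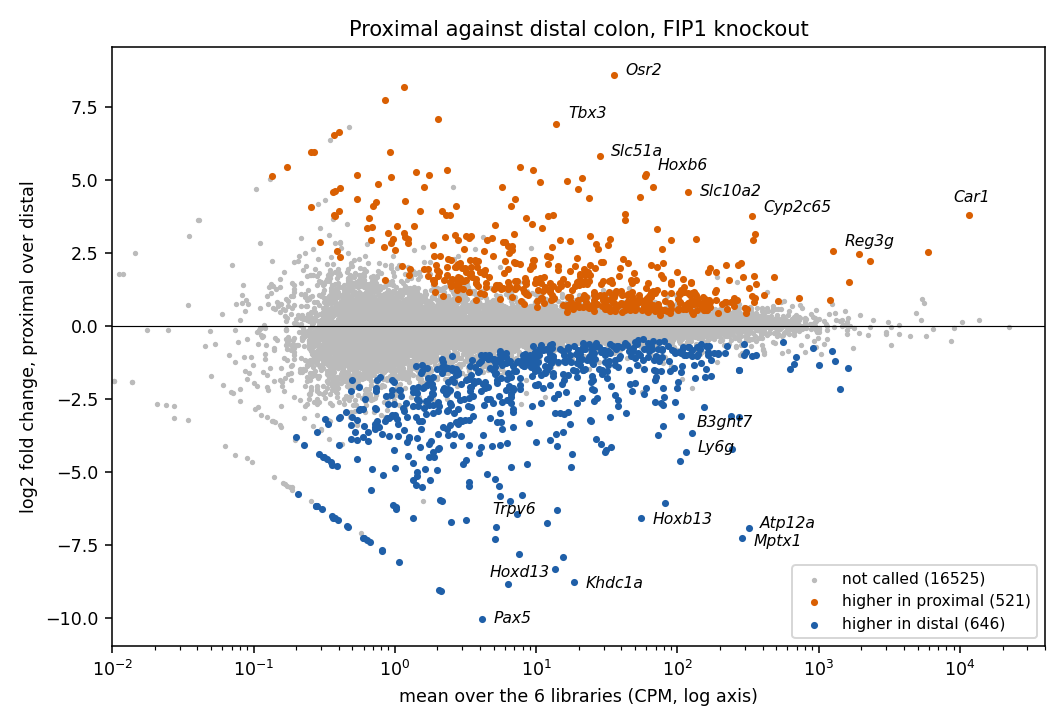
Mean level over the 6 FIP1 knockout libraries (CPM, log axis) against the log2 fold change, proximal over distal, for the 17692 genes tested. Orange points are the 521 genes called higher in proximal and blue points the 646 called higher in distal; Osr2 has the highest called value and Pax5 the lowest, and straight rows of points at the left are genes with no count in a segment.

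Osr2 (chromosome 15, 35296098 to 35303305), which codes for a zinc finger transcription factor, was at 84.1, 75.7 and 51.9 CPM in proximal and 0.273, 0.0824 and 0.124 in distal. Its log2 fold change of 8.63 ± 0.44 (adjusted p = 8.6e-10) was the largest among the proximal genes whose mean reached 5 CPM. The T-box factor Tbx3 was at 25.6, 41.3 and 15.4 CPM against 0.109, 0.495 and 0.124 (6.92 ± 0.57, adjusted p = 4e-07). At the other end Khdc1a, a KH domain gene, was at 0.0668, 0.0716 and 0.0872 CPM in proximal and 14.4, 18.6 and 77.3 in distal (log2 -8.76 ± 0.82, adjusted p = 3.2e-06). Casp14, a caspase best known from cornified skin, was listed at 0, 0.43 and 0 against 27.3, 21.3 and 43.2 CPM (-7.92 ± 0.58, adjusted p = 7.1e-07). For these 4 genes the libraries of the segments lay far apart. The axon guidance receptor Robo2 was at 0.358 to 2.09 CPM in proximal and 26.6 to 42.4 in distal (-4.82 ± 0.52).

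The HOX genes of the B and D clusters divided by their place in the cluster, and those of the A cluster did not. Hoxb3 to Hoxb8 were all higher in proximal, and Hoxb13, at the far end of the same cluster, was higher in distal. Of 15 tested HOX genes of paralog groups 1 to 8, 9 were higher in proximal and 2 in distal, with a median log2 fold change of 4.36, beside -0.0095 over all genes. Of 10 tested genes of groups 9 to 13, 5 were higher in distal and 0 in proximal in edgeR, with a median of -3.67 (8 and 1 at an unadjusted p under 0.05, 5 and 1 in DESeq2). Hoxb6 (chromosome 11, 96292476 to 96301569) was at 131, 130 and 90.7 CPM in proximal and 3.98, 2.72 and 2.59 in distal (5.22 ± 0.31, adjusted p = 4.8e-09). Hoxb7 and Hoxb8, its neighbours, were at 15.9 to 24.3 CPM against 0.0618 to 0.928, with log2 fold changes of 5.34 ± 0.47 and 4.95 ± 0.34. Hoxb3, Hoxb4 and Hoxb5 lay between 4.36 and 4.96. Hoxb9, the next gene toward the tail, was at 67.2, 68.7 and 72.0 CPM against 60.7, 44.8 and 43.8 with no overlap (0.48 ± 0.14). Its adjusted p was 0.055 in edgeR, 0.047 with RLE factors, 0.048 with a replicate block and 0.020 in DESeq2.

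Hoxb13 (chromosome 11, 96194316 to 96197447) was at 0.201, 0.716 and 2.18 CPM in proximal and 101, 90 and 138 in distal (-6.58 ± 0.72, adjusted p = 9.4e-06). Hoxd13 (chromosome 2, 74668310 to 74671599), known for its part in limb and hindgut development, was at 0, 0.0716 and 0.131 against 13.4, 22.7 and 45.8 CPM (-8.34 ± 0.83, adjusted p = 1.5e-05). In the D cluster too the front genes were higher in proximal and the last genes in distal. Hoxd3, Hoxd4 and Hoxd8 are named here after their values were seen. Hoxd8 was at 2.75 to 2.81 CPM in proximal and at most 0.164 in distal, Hoxd4 was listed at 0 in all 3 distal libraries and was at least 11.4-fold higher in proximal (against 3 counts over the group), and Hoxd10 and Hoxd11 were higher in distal, at 0.709 to 4.08 CPM there. Hoxd3 was also called higher in proximal, but without distal library 1 its log2 of 3.96 became 4.20 with an adjusted p of 0.056, and 3 of the 6 fits with a library left out lost the call. Hoxa13 was at 3.88, 0.501 and 19.8 CPM against 45.2, 48.8 and 44.6 (-2.46 ± 0.67, adjusted p = 0.030), a call lost in 5 of those 6 fits and weakest without proximal library 1 (-2.12, adjusted p = 0.15). In the A cluster the values of Hoxa2 to Hoxa7 were all negative, from -1.74 to -0.62. Hoxa5 and Hoxa6, also named after their values were seen, were the 2 of them called higher in distal, and both lost the call without distal library 1 (-1.42, adjusted p = 0.057, and -1.40, adjusted p = 0.14).

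**Figure D2:**
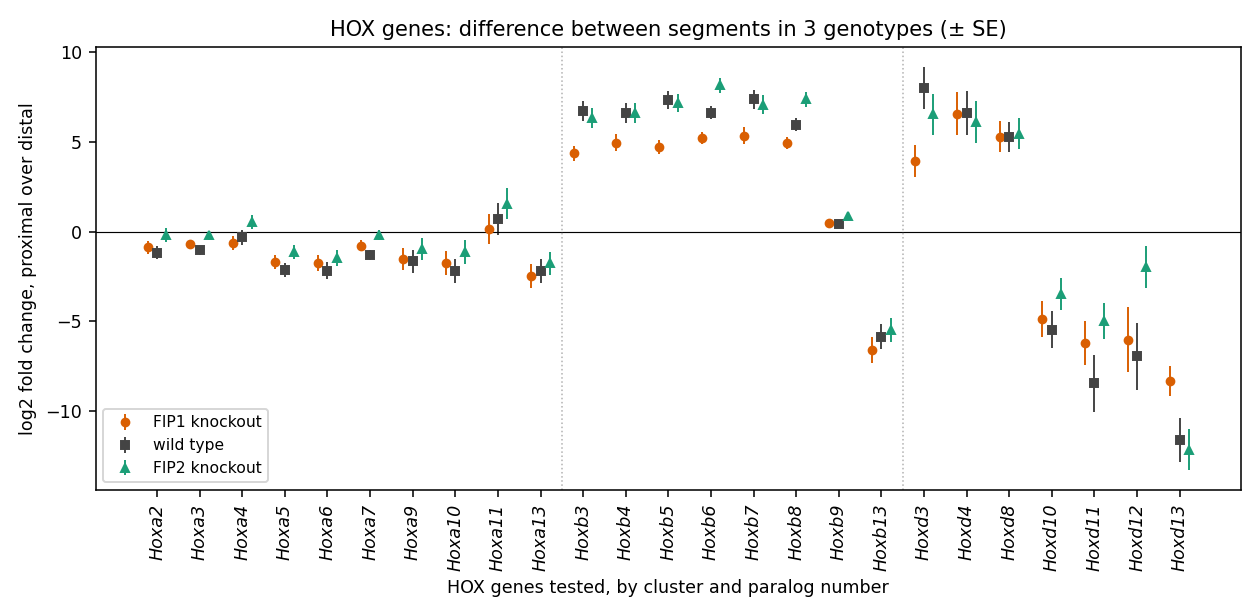
Log2 fold change, proximal over distal, with its standard error for the 25 HOX genes tested, in order of cluster and paralog number, in 3 genotypes from 1 fit. In the B and D clusters the values are above 0 up to Hoxb8 and Hoxd8 and below 0 for Hoxb13 and from Hoxd10 on in all 3 genotypes; for genes with no or few counts in a segment (Hoxd3 to Hoxd13) the size depends on the fit's prior count.

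Of 42 other gut transcription factors tested, 9 were higher in proximal and 3 in distal, with a median log2 of 0.07. Cdx2, the caudal factor that gives intestinal identity, was at 179, 182 and 182 CPM in proximal and 90.4, 94.0 and 53.4 in distal (1.19 ± 0.18, adjusted p = 0.00021). Pparg, a lipid-sensing nuclear receptor, was at 164, 196 and 122 CPM against 55.9, 80.4 and 54.3 (1.34 ± 0.20), and Nr1h4, which codes for the bile acid receptor FXR, was at 238, 330 and 201 against 102, 138 and 103 (1.17 ± 0.19). Esrrg, an estrogen-related receptor, went the other way, with 0.215 to 1.31 CPM in proximal and 4.12 to 6.55 in distal (-2.86 ± 0.48).

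Sodium and potassium handling genes were called in the distal direction alone. Of 19 tested genes of electrogenic sodium absorption and aldosterone response, 6 were higher in distal and 0 in proximal (median -0.30; 8 and 1 at an unadjusted p under 0.05, 6 and 0 in DESeq2). Atp12a (chromosome 14, 56365068 to 56388550), the colonic proton-potassium pump, was at 5.75, 1.43 and 8.24 CPM in proximal and 621, 335 and 942 in distal (-6.91 ± 0.77, adjusted p = 1.1e-05). The gamma subunit gene of the epithelial sodium channel, Scnn1g, was at 0.735, 2.29 and 0.784 against 8.46, 8.08 and 12.8 (-2.98 ± 0.38), and the alpha subunit gene Scnn1a at 26.7, 30.6 and 35.6 against 92.8, 77.8 and 84.7 (-1.46 ± 0.19). All distal libraries lay above all proximal ones for these 3 genes. The beta subunit gene Scnn1b was at 7.52 to 9.02 CPM against 9.26 to 14.5 and did not pass (-0.56 ± 0.20, adjusted p = 0.12). Fxyd4, a regulator of the sodium-potassium pump, was higher in distal at low levels, 2.13 to 2.96 CPM against 0.215 to 0.668 (-2.74 ± 0.49).

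Carbonic anhydrases and anion channels went in both directions. Of 33 tested genes of chloride, bicarbonate, proton and short-chain fatty acid transport 7 were higher in proximal and 4 in distal (median 0.19). Car1 (chromosome 3, 14766216 to 14808368), the cytosolic carbonic anhydrase of colonocytes, was at 21500, 27100 and 16300 CPM in proximal and 1010, 2590 and 1070 in distal (3.80 ± 0.42, adjusted p = 1.1e-05). Car8, an anhydrase-related protein without that activity, was higher in proximal (90.6 to 114 CPM against 12.4 to 35.5), as was Car12 (99.1 to 149 against 32.2 to 70.8). The membrane-bound Car4 was higher in distal, at 1230 to 1640 CPM against 491 to 685 (-1.33 ± 0.26). The calcium-activated chloride channel Ano1 was at 23.8, 19.2 and 39.0 against 193, 145 and 157 CPM (-2.59 ± 0.26), and the goblet cell anion channel Best2 at 2.87, 4.37 and 3.14 against 27.6, 27.9 and 28.5 (-3.02 ± 0.32). Slc26a3, the chloride-bicarbonate exchanger of the surface, was higher in distal at 501, 1130 and 1010 CPM against 2010, 3060 and 2020 (-1.42 ± 0.33, adjusted p = 0.010), but without proximal library 1 the value was -1.12 (adjusted p = 0.075) and without distal library 2 -1.17 (adjusted p = 0.056). The water channel Aqp8 was at 196, 457 and 520 CPM against 976, 1170 and 714 and was called at -1.29 ± 0.38 (adjusted p = 0.048). That call was lost in 5 of the 6 fits with a library left out, to -0.95 without proximal library 1 (adjusted p = 0.24). Of 8 Clca genes, whose close copies can share reads, 4 were higher in distal. Clca4b was at 673, 582 and 305 CPM against 2110, 2050 and 2800 (-2.16 ± 0.37), and Clca3a1 at 13.1 to 15.9 against 27.4 to 35.2.

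Bile acid and fat handling genes were called in both directions. Of 28 tested genes 7 were higher in proximal and 4 in distal (median 0.27). Slc10a2 (chromosome 8, 5083219 to 5105351), the apical bile acid carrier, was at 236, 328 and 120 CPM in proximal and 3.49, 13.2 and 11.9 in distal (4.59 ± 0.59, adjusted p = 4.4e-05). Slc51a, a subunit of the basolateral exporter that passes bile acids on to the blood, was at 43.0, 84.8 and 37.6 against 0.6, 2.14 and 0.371 (5.84 ± 0.52, adjusted p = 7.1e-07). Mogat2, which rebuilds triglyceride from absorbed fat, was at 2.86 to 3.94 CPM against 0.309 to 0.6. Abcg5 and Abcg8 code for the partners of the sterol exporter and were both higher in distal, at 12.7, 14.3 and 28.8 CPM against 1.80, 0.859 and 0.959 for Abcg5 (-3.96 ± 0.46) and 2.47 to 6.48 against 0.535 to 0.788 for Abcg8 (-2.70 ± 0.51).

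Fatty acid oxidation genes were called in the proximal direction alone. Of 31 tested genes of fatty acid oxidation, ketone synthesis and PPAR targets 12 were higher in proximal and 0 in distal in edgeR (24 and 0 at an unadjusted p under 0.05, 16 and 0 in DESeq2), 7 of the 12 stayed called with any library left out, and in 24 the proximal libraries all lay above the distal ones (median 0.55). The thiolases Acaa2 and Acaa1b were higher by 1.14 ± 0.17 and 3.46 ± 0.66, and the short-chain acyl-CoA dehydrogenase Acads by 0.88 ± 0.17. The fatty acid sensing receptor Ppara was at 9.76, 11.5 and 9.68 against 4.37, 3.87 and 3.89 CPM (1.34 ± 0.27), and its target Vnn1 at 6.06 to 7.62 against 1.57 to 2.16. In edgeR 0 of 54 nuclear-encoded respiratory chain subunits were called, 6 had an unadjusted p under 0.05, and DESeq2 called 2, all higher in proximal (median 0.16). Of 26 cholesterol synthesis genes 0 were called in edgeR, 2 had an unadjusted p under 0.05, and DESeq2 called 1 (median -0.09).

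Among enzymes that modify foreign compounds the calls were mostly proximal for conjugating enzymes and even for cytochromes P450. Of 62 tested conjugating enzymes, carboxylesterases and efflux pumps 22 were higher in proximal and 5 in distal (median 0.49). Ugt8a, which makes galactosyl lipids, was at 10.8, 14.7 and 7.32 CPM against 0.218, 0.660 and 0.371 (4.76 ± 0.40), and Ugt2b5, a glucuronosyltransferase, at 90.6, 86.8 and 62.0 against 5.29, 10.4 and 1.48 (3.83 ± 0.48). The aldo-keto reductase Akr1c19 was at 275 to 324 against 70.5 to 97.2 CPM. The carboxylesterases divided: Ces1f was higher in proximal (116 to 146 against 14 to 30.2 CPM) while Ces2f and Ces2g were higher in distal, Ces2g at 3.94 to 4.22 against 12.4 to 21.0 CPM (-2.0 ± 0.20). Of 30 cytochrome P450 genes of families 1 to 4, 6 were higher in each segment. Cyp2c65, an epoxygenase of the gut, was at 626, 780 and 481 CPM against 31.3, 84.9 and 22 (3.78 ± 0.42), while its relative Cyp2c68 was at 1.60, 2.94 and 5.97 against 57.8, 47.6 and 88.7 (-4.15 ± 0.46). Cyp2c66 was at 3.27 to 4.44 CPM in proximal and at most 0.0824 in distal. Cyp2d10, Cyp2d12 and Cyp2f2 were higher in distal, Cyp2d12 at 52.3 to 89.5 CPM against 6.28 to 12.9. These families hold close copies whose reads the counting could split.

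Transporters and brush border enzymes were mixed. Of 32 amino acid, sugar and nucleoside transporter genes 6 were higher in distal and 1 in proximal. Slc15a1, the peptide carrier, was at 5.55, 6.87 and 17.7 CPM against 136, 124 and 147 (-3.73 ± 0.42, adjusted p = 1.3e-05). The creatine carrier Slc6a8, the folate carrier Slc46a1, the phosphate carrier Slc20a1 and the nucleoside carrier Slc28a3 were higher in distal, with log2 fold changes of -1.51 ± 0.23, -2.10 ± 0.41, -1.70 ± 0.34 and -2.10 ± 0.32. Among brush border enzymes Ace was higher in distal (16.3 to 24.9 CPM against 4.51 to 5.28), and Alpi, intestinal alkaline phosphatase, in proximal (34.4, 94.1 and 49.2 against 4.69, 16.0 and 2.22; 2.99 ± 0.50). Sis, sucrase-isomaltase, was at 2.22 to 2.86 CPM in proximal and 0.0546 to 0.495 in distal. Of 17 tested markers of small intestinal absorptive cells 4 were higher in proximal and 2 in distal, Slc15a1, Ace, Alpi, Sis and Slc10a2 among them.

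**Figure D3:**
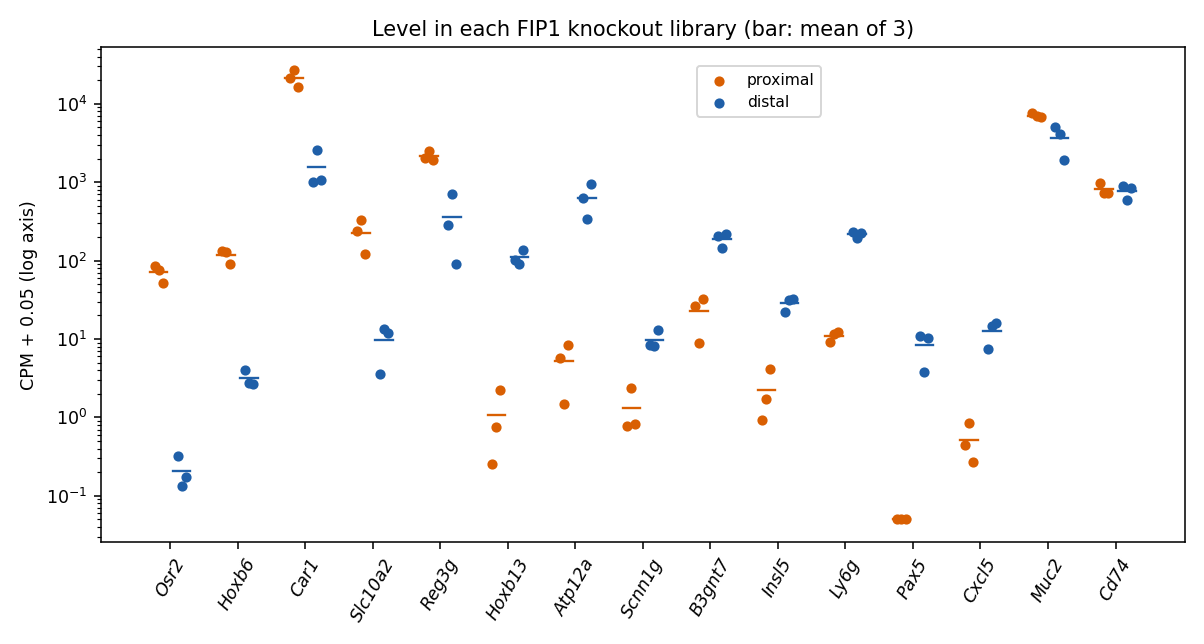
CPM plus 0.05 (log axis) of 15 genes in each of the 6 FIP1 knockout libraries, with the mean of each segment as a bar. The first 5 genes are higher in proximal and the next 8 in distal with no overlap of libraries, and Muc2 and Cd74 are shown as genes that did not pass the edgeR test.

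Of 33 tested goblet cell and mucus genes 2 were higher in proximal and 5 in distal (median -0.12). Muc2, the gel mucin, was at 7530, 6890 and 6820 CPM in proximal and 5070, 4070 and 1920 in distal, with no overlap. It did not pass in edgeR (0.94 ± 0.33, adjusted p = 0.10) and passed in DESeq2 (0.029), without the filter on low counts (0.0025) and with a replicate block (0.012). Tgm3, a transglutaminase that cross-links mucus, was at 1.2, 1.29 and 4.27 against 186, 115 and 182 CPM (-6.08 ± 0.75, adjusted p = 3e-05). Sycn, a granule protein, and the membrane mucin Muc1 were higher in distal by -2.47 ± 0.45 and -2.47 ± 0.48. The lectin Itln1 was at 3.01, 34.1 and 10.4 CPM in proximal and 0.709 to 1.48 in distal (3.73 ± 0.74, adjusted p = 0.0027). Ang4, an antibacterial ribonuclease with close copies, was at 26.3, 337 and 21.5 against 1.47, 4.95 and 7.66 (4.78 ± 1.00, adjusted p = 0.0042), and without proximal library 2 its value was 2.37 (adjusted p = 0.068). Retnlb, a goblet cell cytokine, ranged from 121 to 685 CPM in proximal and 37.6 to 303 in distal (1.5 ± 0.66, adjusted p = 0.24). In edgeR it passed without the filter on low counts (adjusted p = 1.2e-12) and with a replicate block (0.012). The fit without the filter estimates the spread with 33096 genes, low counts included, in place of 17692. Its p-values for Retnlb, whose libraries overlap, and for Muc2 are not read as support. Retnlb also passed in 1 of the 6 fits with a library left out, that without distal library 2 (2.81, adjusted p = 0.013).

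Of 49 tested mucin-type glycosyltransferases and sulfotransferases 15 were higher in distal and 7 in proximal (median -0.18). B3gnt7 (chromosome 1, 86302832 to 86307305), which extends keratan-type chains, was at 26.7, 8.95 and 31.9 CPM against 206, 145 and 218 (-3.07 ± 0.35, adjusted p = 1.4e-05). Fut9, which adds fucose in Lewis antigens, was at 1.14, 0.931 and 2.57 against 27.8, 30.3 and 44.6 (-4.39 ± 0.49), and the sulfotransferase Gal3st2b at 0.201, 1.07 and 0.610 against 15.4, 12 and 22.6 (-4.73 ± 0.42). Every distal library was above every proximal one for the 3 genes. St3gal6 and B4galnt3 were also higher in distal, by -2.63 ± 0.37 and -1.77 ± 0.21, while Gcnt4, a branching enzyme, was higher in proximal (7.41 to 15.5 CPM against 1.69 to 3.96). B4galnt2 and Fut2, which make the Sda and H antigens, did not pass (0.85 ± 0.38, adjusted p = 0.26, and 0.11 ± 0.18, adjusted p = 0.90). B4galnt2 passed in edgeR without the filter (0.00069), in a fit to the compared libraries alone (0.019) and with a replicate block (0.0015). The first of these is not read as support, for the reason given for Retnlb.

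Enteroendocrine genes were called in both directions. Of 32 tested 6 were higher in proximal and 4 in distal (median -0.21). Nts, neurotensin, was at 41.0, 58.9 and 22.9 CPM in proximal and 0.928, 2.80 and 0.124 in distal (5.10 ± 0.60, adjusted p = 1.9e-05), and Sct, secretin, at 13.4, 23.8 and 11 against 3.17, 4.04 and 2.84 (2.26 ± 0.33). Insl5, the orexigenic peptide of distal L cells, was at 0.869, 1.65 and 4.10 against 22.1, 31.2 and 32.7 (-3.62 ± 0.56). Pyy, peptide YY, was at 19.4, 21.3 and 21.0 against 52.6, 50.1 and 52.8 (-1.33 ± 0.25), and Tac1, the tachykinin precursor, at 7.55, 4.87 and 9.54 against 37.3, 43.3 and 51.5 (-2.57 ± 0.32). Gcg, the source of glucagon-like peptides, did not pass (-0.39 ± 0.26, adjusted p = 0.54). Of 27 tuft cell genes 3 were higher in distal and 0 in proximal (4 and 2 at an unadjusted p under 0.05, 3 and 0 in DESeq2), but the median was 0.48. All proximal libraries lay above the distal ones for 5 genes and below them for 3, beside shares of 10.9% and 12.3% over all genes. Of the 3 calls 1 held with any library left out. Spib, which B cells also express, was among the 3 (0.523 to 1.36 against 2.56 to 7.15 CPM). Of 37 DNA replication and mitosis genes 0 were called in edgeR, 1 had an unadjusted p under 0.05 and DESeq2 called 1 (median 0.0036), and Mki67 was at means of 258.7 and 258.5 CPM. Of 32 stem cell and Wnt target genes 3 were called, and 0 of them stayed called with any library left out.

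Defence genes were divided between the segments. Of 48 antimicrobial and epithelial defence genes 9 were higher in distal and 6 in proximal (median -0.24). Reg3g (chromosome 6, 78466269 to 78468872), a lectin that kills Gram-positive bacteria, was at 2050, 2480 and 1910 CPM in proximal and 285, 715 and 89.4 in distal (2.57 ± 0.52, adjusted p = 0.0034). Reg3b, its near copy, was at 9310, 12000 and 8930 against 1220, 3620 and 350 (2.54 ± 0.69, adjusted p = 0.028), a call lost without proximal library 1 (2.61, adjusted p = 0.055), proximal library 2 (2.40, adjusted p = 0.076), distal library 1 (2.35, adjusted p = 0.13) or distal library 3 (2.06, adjusted p = 0.11). Mptx1, a mucosal pentraxin, was at 2.41, 4.51 and 3.97 CPM against 416, 436 and 843 (-7.28 ± 1.08, adjusted p = 0.00021). The protease inhibitors Slpi and Wfdc2 were higher in distal, Slpi at 1.15 to 2.21 against 21.0 to 31.2 CPM and Wfdc2 at 8.16 to 23.8 against 68.8 to 87.0. The phospholipase Pla2g2a was at 81.5 to 198 against 323 to 456 CPM. Nos2, the inducible nitric oxide synthase, was at 143, 126 and 76.9 against 110, 123 and 190 and did not pass (-0.29 ± 0.38, adjusted p = 0.85).

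Of 37 chemokines and cytokines 3 were higher in distal and 1 in proximal (median -0.28), beside 3.65% and 2.94% over all genes. Counts this small, here and in the lists that follow in this paragraph, are not read as results about the lists. Cxcl5, a neutrophil attractant, was at 0.401, 0.788 and 0.218 CPM against 7.42, 14.8 and 15.9 (-4.81 ± 0.72, adjusted p = 0.00022). Ccl20, which draws CCR6-bearing lymphocytes, was at 0.436 to 0.716 against 3.66 to 7.29 (-3.22 ± 0.52), and Il18 at 31.1 to 71.8 against 135 to 194 (-1.57 ± 0.31). Of 63 interferon-stimulated genes 1 was called, Gbp5, higher in distal (1.05 to 2.27 against 5.11 to 9.45 CPM), and the median was -0.0036. Of 26 MHC class I and processing genes H2-T3, which codes for the thymus leukemia antigen, was higher in proximal (64.5, 58.8 and 64.1 CPM against 14.7, 19.8 and 13.2; 1.98 ± 0.24), as was H2-Q2 (1.25 ± 0.25); reads of these near-identical genes may be split. Cd74, the invariant chain of MHC class II, was at 984, 729 and 726 against 904, 585 and 853 CPM (0.06 ± 0.35, adjusted p = 0.98).

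Markers of B lymphocytes were higher in the distal libraries. Of 25 tested B and plasma cell markers 17 were higher in distal and 0 in proximal in edgeR, with a median of -4.01 (21 and 0 at an unadjusted p under 0.05, 16 and 0 in DESeq2), and 14 of the 17 stayed called with any library left out. Pax5 (chromosome 4, 44524757 to 44710487), the B cell identity factor, had no count in the 3 proximal libraries and 11, 3.71 and 10.3 CPM in distal, at least 153-fold higher (against 3 counts over the group). Ms4a1 was at 0.668, 1.22 and 0.349 against 12.7, 6.51 and 15.6 (-4.01 ± 0.58), and Ighd at 0.334, 0.358 and 0.174 against 20.5, 6.51 and 19.9 (-5.79 ± 0.83). Cd79a, Cd79b and Cd22 were higher in distal too, and distal library 2 was the lowest distal library for each of these genes. Igha, the antibody chain of intestinal plasma cells, was at 127, 190 and 24.8 against 315, 182 and 296 CPM and did not pass (-1.22 ± 0.59, adjusted p = 0.32). It passed in edgeR without the filter on low counts (adjusted p = 2.4e-08), but in 0 of the 6 fits with a library left out. The p-value without the filter is not read as support, for the reason given for Retnlb. The summed level of the 27 markers in the table was 45.3 to 505 CPM in proximal and 508 to 826 in distal, and 2 of them had no count in any proximal library. The class II genes H2-Ob, H2-DMb2 and H2-Eb2 were higher in distal in the same libraries, 3 of 12 class II genes tested, H2-Ob at 0.0668 to 0.479 against 4.53 to 13.9 CPM. B cells express these 3, but they express other class II genes too, and Cd74 was not called. The part of B cells in the values of these 3 genes, and in those of Spib and Ccl20, was not tested.

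Cytotoxic lymphocyte genes went the other way. Of 33 T cell and innate lymphocyte markers 4 were higher in proximal and 1 in distal (median 0.62), and the summed level of 35 markers was 84.9 to 137 CPM in proximal and 50.7 to 77.6 in distal. Gzma was at 20, 19.1 and 9.24 against 4.75, 6.02 and 4.69 CPM (1.64 ± 0.29), Gzmb at 16.8, 11.8 and 8.93 against 3.38, 3.05 and 2.04 (2.14 ± 0.40), and Nkg7 at 3.23 to 4.37 against 0.824 to 1.61. All proximal libraries lay above all distal ones for the 3 genes. Cma1, a mast cell chymase, was at 0, 0.286 and 0 against 4.69, 7.5 and 18.7 CPM (-6.88 ± 0.91). Ms4a6c was the only called gene of 20 macrophage and dendritic cell markers tested, but all 26 such markers summed to 69.3 to 80.6 CPM in proximal and 91.3 to 125 in distal. Gsn was the only called gene of 27 fibroblast markers (72.4 to 106 against 142 to 186 CPM), but the summed level of the 35 fibroblast markers in the table was 219 to 278 CPM in proximal and 295 to 565 in distal. The part of these cells in the epithelial results was not tested. Ly6g (chromosome 15, 75155240 to 75159126), a neutrophil surface antigen, was at 9.09, 11.7 and 12.1 against 232, 197 and 225 CPM (-4.31 ± 0.40, adjusted p = 1.4e-06). S100a8, an abundant neutrophil transcript, was at 0.0872 to 0.143 against 1.54 to 1.81 CPM in the same libraries. In distal wild type Ly6g was at 76.8 to 171 CPM while S100a8 was at 0 in every library. In distal FIP2 knockout Ly6g was at 221 to 277 CPM. The summed level of 21 neutrophil and mast cell markers in FIP1 knockout was 70.5 to 155 CPM in proximal and 259 to 298 in distal, and without Ly6g 61.4 to 144 and 62.5 to 73.4. Of the 8 markers tested 3 were higher in distal and 0 in proximal (3 and 4 at an unadjusted p under 0.05, median -0.05). Of the 21, 3 were at 0 in all proximal and 2 in all distal libraries.

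**Figure D4:**
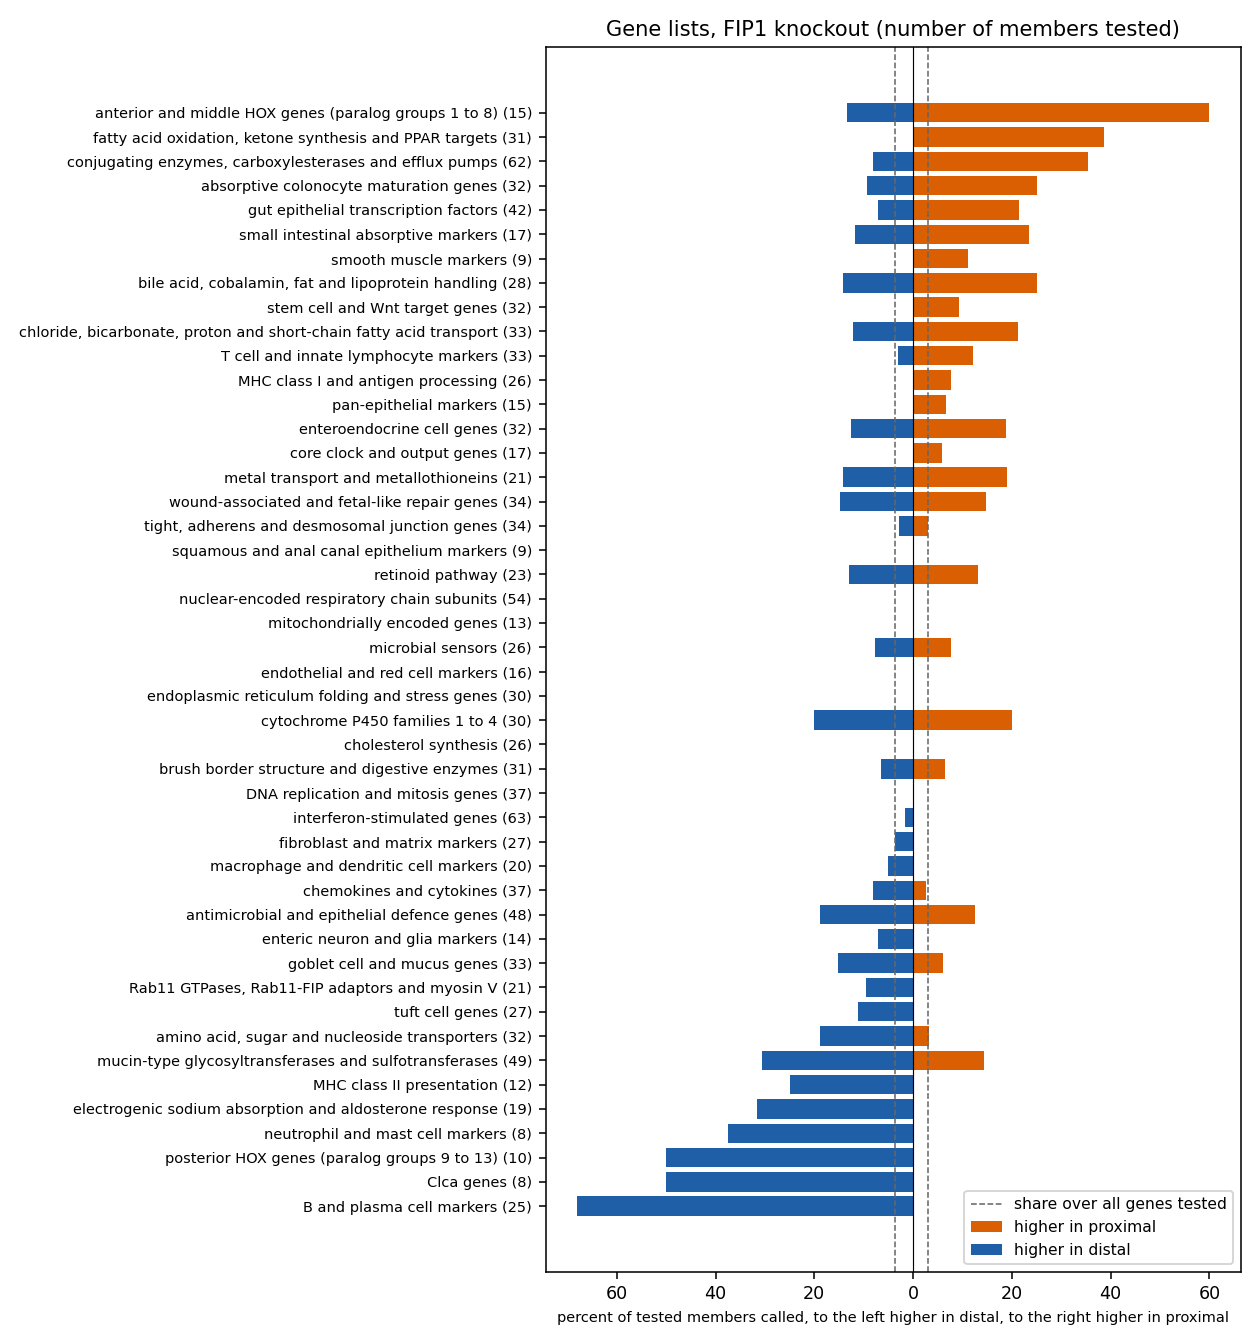
Percent of tested members of each gene list with 8 or more members tested that were called in FIP1 knockout, higher in distal to the left and higher in proximal to the right, with the number tested in brackets and dashed lines at the shares over all genes (2.94% and 3.65%). B and plasma cell markers (17 of 25) extend farthest to the left and HOX genes of paralog groups 1 to 8 (9 of 15) farthest to the right; bars of lists with few members rest on few genes, and lists share members.

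The same contrast was taken in the other genotypes from the same fit, and both comparisons below share the 6 FIP1 knockout libraries. In wild type 2893 genes were called (16.4%), 1585 higher in proximal (8.96%) and 1308 in distal (7.39%). In FIP2 knockout 1676 were called (9.47%), 882 higher in proximal (4.99%) and 794 in distal (4.49%). The difference between the FIP1 knockout and the wild type contrast was called for 114 genes (0.644%), 24 with a more proximal value in FIP1 knockout (0.136%) and 90 with a more distal one (0.509%), and 1641 genes had an unadjusted p under 0.05. On log2(FPKM + 1) values with limma the split was 28 and 56, and without a filter on low values 45 and 75. Of the 114 genes 29 stayed called when any 1 of the 12 libraries was left out, and the count moved most when wild type distal library 1, 2 or 3 (65, 40 and 69 genes), FIP1 knockout distal library 1 or 2 (46 and 61) or proximal library 1 or 3 (49 and 44) was missing. The tested HOX genes, Osr2, Car1, Atp12a and Slc10a2 were not among the 114. Each of Hoxb3 to Hoxb8 nevertheless had a smaller log2 fold change in FIP1 knockout than in either other genotype. The values were 4.36 to 5.34 in FIP1 knockout, 5.97 to 7.37 in wild type and 6.35 to 8.15 in FIP2 knockout, with low distal levels. Mitochondrially encoded genes held a mean of 24.4% of counts in distal and 23.9% in proximal wild type, beside 15.2% and 15.7% in FIP1 knockout. In FIP2 knockout the shares were 13.9% and 17.3%.

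For several of the 29 the segments differed in FIP1 knockout and little, or in the opposite direction, in wild type. Pla2g4c (chromosome 7, 13324655 to 13360672), a membrane-acting phospholipase, was at 107, 195 and 39.4 CPM in proximal FIP1 knockout and at 1.24 to 13.1 in all other 15 libraries, including the distal FIP1 knockout ones (3.03 to 3.44). Its interaction was 6.30 ± 0.85 on the log2 scale (adjusted p = 0.0026). Cxcl5 was at 4.12, 6.70 and 0.300 CPM in proximal and 1.54, 1.23 and 1.14 in distal wild type, beside 0.218 to 0.788 and 7.42 to 15.9 in FIP1 knockout (-6.29 ± 0.97, adjusted p = 0.0039). Abcg5 (chromosome 17, 84658234 to 84683011) was at 8.90 to 25.8 against 13 to 21.1 CPM in wild type, beside 0.859 to 1.80 against 12.7 to 28.8 in FIP1 knockout (-4.11 ± 0.59, adjusted p = 0.0030). Tac1 was at 4.4 to 7.11 against 4.47 to 5.84 CPM in wild type, beside 37.3 to 51.5 in distal FIP1 knockout (-2.72 ± 0.47, adjusted p = 0.0096). Clca4b was at 6.75 to 19.9 against 3.57 to 8.56 CPM in wild type, far under either FIP1 knockout segment (-3.38 ± 0.54, adjusted p = 0.0046). In FIP2 knockout Abcg5 was at 1.38 to 3.54 against 21.8 to 35.1 CPM, Tac1 at 12 to 30.4 against 54.7 to 117 and Clca4b at 209 to 391 against 3050 to 3530. Cxcl5 was at 0 to 0.229 against 2.02 to 3.06 CPM there. Abcg5, Tac1, Clca4b and Cxcl5 were thus higher in distal in both knockouts. Pla2g4c was at 3.06 to 6.6 CPM in proximal and 1.24 to 2.47 in distal FIP2 knockout.

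For other genes the segment difference of wild type was smaller or reversed in FIP1 knockout. H2-T3 was at 98.4 to 141 against 5.72 to 6.15 CPM in wild type, and both FIP1 knockout segments lay between those values (-2.31 ± 0.35, adjusted p = 0.0033). Ifi47, an interferon-induced GTPase, was at 7.68, 19.0 and 14.2 against 1.11, 1.88 and 2.01 CPM in wild type, and at 59.7 to 88.1 against 60 to 82.9 in FIP1 knockout (-3.06 ± 0.48, adjusted p = 0.0044). The bilirubin-conjugating Ugt1a1 was at 61.6 to 71.4 against 1.01 to 3.74 CPM in wild type and 11 to 17.7 against 2.35 to 5.36 in FIP1 knockout (-2.81 ± 0.50). Car12 was at 85.8 to 157 against 11.5 to 14 CPM in wild type (-2.05 ± 0.36). The desaturase Scd1 turned round, from 34.9 to 90 against 8.49 to 17 CPM in wild type to 12.7 to 16.8 against 30.2 to 40 in FIP1 knockout (-3.37), as did the hormone granule gene Cpe, from 15.2 to 43.3 against 7.21 to 13.2 to 5.58 to 8.89 against 17.1 to 18.8 (-2.50). The lipoprotein gene Apob (-2.15) and the granule gene Chgb (-1.96) were higher in proximal in wild type, and in FIP1 knockout neither was called (log2 of -0.63 and 0.63). In FIP2 knockout Scd1 was at 20 to 31.8 against 38.4 to 69.8 CPM, Cpe at 11 to 12.4 against 15.7 to 17.1 and Apob at 114 to 152 against 204 to 280. Ifi47 was at 36.2 to 89.7 against 71.5 to 100 CPM there, while Chgb kept the wild type direction (201 to 353 against 76.8 to 123). Pla2g5, a secreted phospholipase, was at 0.525 to 2.53 against 12.6 to 15.7 CPM in wild type and at 42.2 to 67.6 against 55.1 to 77.7 in FIP1 knockout (3.52 ± 0.52, adjusted p = 0.0033). Reg3g was at 43.9 to 97.2 CPM in proximal and at most 1.00 in distal wild type, so that both segments of FIP1 knockout were higher, the distal one more so (-4.84 ± 0.91, adjusted p = 0.017, and 0.070 without wild type distal library 2, where the value was -4.64).

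Genes of neurons and myelin were among the 114, at low levels. Gria1, a glutamate receptor gene, was at 0.0668, 0 and 0 CPM in proximal and 0.437, 0.742 and 0.741 in distal FIP1 knockout, and Mobp, a myelin gene, at 0 in all 3 and 0.6, 0.742 and 0.494. In wild type proximal library 2 they were at 10.3 and 9.45 CPM, and at 1.72 to 2.70 in the other two proximal wild type libraries. Their interactions (-7.19 ± 1.21 and -9.06 ± 1.48) stayed called without that library, and their sizes rest on the prior count of the fit. The source of these transcripts was not tested.

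**Figure D5:**
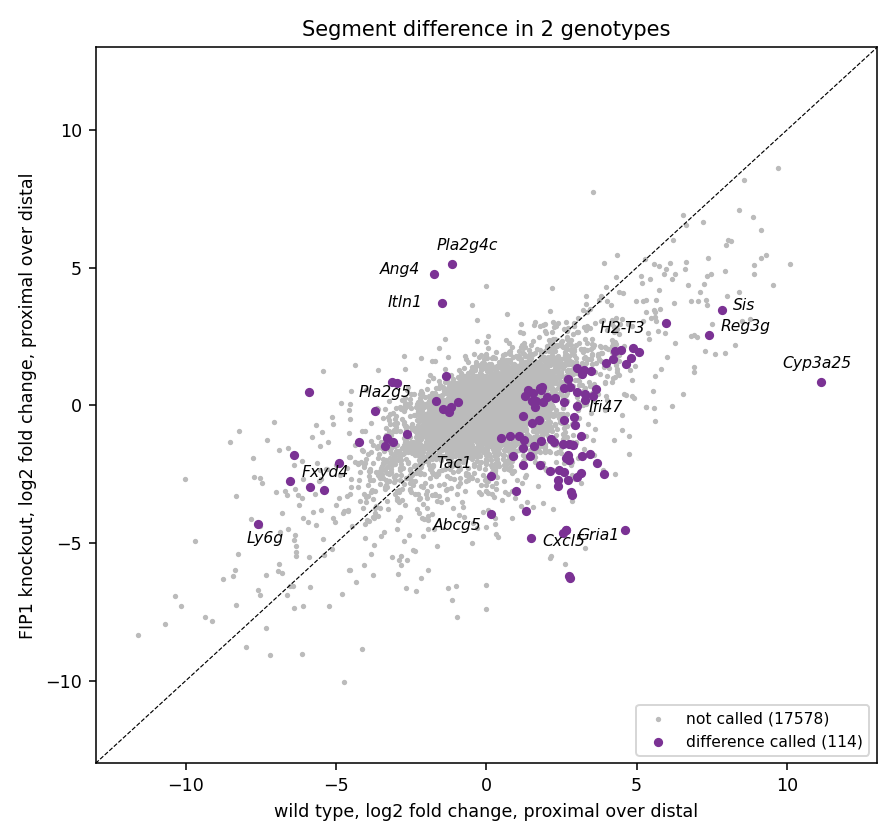
Log2 fold change, proximal over distal, in wild type (horizontal) and FIP1 knockout (vertical) for the 17692 genes tested, with the line of equal values dashed and the 114 genes whose difference was called in purple. Pla2g4c, Ang4 and Itln1 lie above the line and Cxcl5, Abcg5 and Gria1 below it; both axes share no library, and they come from 1 fit.

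Against FIP2 knockout the segment difference was called for 20 genes (0.113%), 1 more proximal (0.00565%) and 19 more distal (0.107%) in FIP1 knockout, with 1133 at an unadjusted p under 0.05. The count was 1 without FIP1 knockout distal library 1 or 3, proximal library 1 or FIP2 knockout proximal library 3. It was 2, 6 and 12 without FIP2 knockout distal library 1, 2 or 3, 10 without its proximal library 2, and 60 without FIP1 knockout distal library 2. Only Ggta1 (chromosome 2, 35400179 to 35463231), which makes the alpha-gal sugar, stayed called whichever of the 12 libraries was left out. It was at 209, 144 and 252 CPM in proximal FIP2 knockout and at no more than 3.19 in every other library of the series (-7.56 ± 0.76, adjusted p = 0.00011). Hoxb6 was called as well, with a smaller segment difference in FIP1 knockout (-2.92 ± 0.51, adjusted p = 0.026), but in 6 of 12 fits only, and without FIP2 knockout distal library 2 its value was -2.58 (adjusted p = 0.13). The immunoglobulin genes Igha and Ighg2c were called in the same direction (-4.69 ± 0.87 and -5.58 ± 0.82), with Igha at 213 to 326 against 15.8 to 29.3 CPM in FIP2 knockout. The summed level of the B and plasma cell markers, Igha included, was 408 to 698 CPM in proximal and 62.9 to 100 in distal FIP2 knockout. That is the reverse of the order in FIP1 knockout, but B cell genes did not share it. Pax5 was at 0.459 to 2.2 against 0.31 to 2.94 CPM in FIP2 knockout, Cd79a at 0.917 to 3.37 against 0.62 to 4.58 and Ms4a1 at 1.22 to 4.34 against 1.09 to 5.2. Of the 25 markers tested 5 were higher in proximal and 0 in distal there (median 0.20), beside 4.99% and 4.49% over all genes. Wild type had the direction of FIP1 knockout, with 9 of the 25 higher in distal and 0 in proximal (median -2.24), beside 7.39% and 8.96% over all genes. Igha lost its call in 9 of 12 fits, with an adjusted p of 0.12 and a value of -4.81 without FIP2 knockout distal library 2, and Ighg2c in 5 of 12, with 0.068 and -5.64 without FIP1 knockout distal library 1.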

How the data were processed

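RNA was measured in 18 libraries. The authors deposited a table of counts per gene and a table of FPKM, with reads aligned by STAR 2.5 or TopHat to GRCm38 (mm10) and counted by HTSeq 0.6.1, per the submitters' processing notes, which also name DESeq2; which aligner served which file, and whether strand was used, is not given in the sources used here, so overlapping and antisense genes cannot be told apart. Of 54532 genes 21436 had no count. The counts deposited by the authors were tested with edgeR 4.0.16 in R 4.3.3 (filterByExpr, TMM factors, quasi-likelihood test, 1 fit to all 6 groups of 3 libraries, Benjamini-Hochberg adjustment over the 17692 genes kept); CPM values use the same factors, and ± is the standard error. Contrasts were proximal minus distal in FIP1 knockout, and that difference minus the same in wild type and in FIP2 knockout. The procedure was tested on simulated data. Named genes were drawn from the 15 largest called changes each way (mean level of 5 CPM or more, no overlap of libraries), the 8 largest differences each way between genotypes (mean level of 1 CPM or more), up to 6 members of each list in order of adjusted p, members called in an interaction, and a short list named whether called or not; exceptions are stated, and some genes are not reported here. The comparison and the gene lists were chosen with earlier results of these data known. Alternatives were RLE factors, other filters, the compared libraries alone, a replicate block, no mitochondrially encoded genes, DESeq2 1.42.0, limma 3.58.1 on log2 of the authors' FPKM, and each library left out. Promoter sequences came from RefSeq.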

Additional observations from a re-analysis of the deposited data

Results flagged for a closer look

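The difference between the segment contrast of FIP1 knockout and that of wild type was tested with an interaction term, and 114 genes passed an adjusted p of 0.05. Against FIP2 knockout 20 genes passed. The genes described above and in the next sentences drew attention for that reason, and no explanation of these differences was tested. Values are log2 differences, positive where the FIP1 knockout value was more proximal.

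The following passed whichever of the 12 libraries was left out. Pla2g4c had a difference of 6.30 and Pla2g5 of 3.52. Among transport and lipid genes Abcg5 had -4.11, Clca4b -3.38, Scd1 -3.37, Car12 -2.05, Apob -2.15 and Ugt1a1 -2.81. Among hormone and granule genes Tac1 had -2.72, Chgb -1.96 and Cpe -2.50. Among defence genes Cxcl5 had -6.29, H2-T3 -2.31 and Ifi47 -3.06. Mobp had -9.06 and Gria1 -7.19. Mobp and Slc24a2 had no count and Gria1 1 count in the 3 proximal FIP1 knockout libraries, so the size of these differences depends on the prior count of the fit.

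Other calls against wild type depended on single libraries. Ang4 (6.53) passed in 7 of 12 fits, with an adjusted p of 0.077 and a value of 6.06 without FIP1 knockout distal library 1, and 4.11 without proximal library 2. Itln1 (5.19) passed in 10, with 0.065 and 4.89 without FIP1 knockout distal library 1, and Fxyd4 (3.80) in 7, with 0.15 and 3.23 without FIP1 knockout proximal library 1. Ly6g (3.28) passed in 5, with 0.081 and 2.92 without wild type proximal library 1. Ifi27l2a (3.99) passed in 3, with 0.079 and 3.82 without wild type distal library 2, and Cnpy1 (3.77) in 2, with 0.10 and 3.62 without FIP1 knockout distal library 1. B3gnt7 (2.33) passed in 6, with 0.096 and 1.98 without FIP1 knockout proximal library 3, and Slc28a3 (2.79) in 4, with 0.12 and 2.52 without wild type proximal library 1. In limma on log2(FPKM + 1), a scale that understates the change of low genes, Slc28a3 was at 0.40 (adjusted p = 0.92), and 10 of the 30 named genes that this fit holds did not pass.

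In the distal direction Cyp3a25 (-10.29) was at 14.8, 20.4 and 18.6 CPM in proximal wild type and at no more than 0.401 in any FIP1 knockout library, and without FIP1 knockout distal library 1 its value was -6.22 (adjusted p = 0.9999). Slc24a2 (-8.94) passed in 10 fits, with 0.058 and -8.91 without FIP1 knockout proximal library 3, and Ddn (-7.19) in 3, with 0.088 and -6.75 without proximal library 1. Ccl7 (-6.42) passed in 2, with 0.11 and -5.90 without wild type distal library 2, and without that library Reg3g (-4.84, 10 fits) had 0.070 and -4.64, Vnn1 (-3.14, 6 fits) 0.076 and -3.02, and Isx (-2.46, 2 fits) 0.14 and -2.22. Sis (-4.37) passed in 5, with 0.31 and -3.48 without FIP1 knockout distal library 2, and was at 124 to 157 CPM in proximal wild type. Ppara (-1.66) passed in 1, with 0.12 and -1.62 without FIP1 knockout proximal library 3.

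Against FIP2 knockout Ggta1 (-7.56) passed in all 12 fits. Chst3 (-6.31) passed in 4, with 0.11 and -5.83 without FIP1 knockout distal library 1, and Ms4a1 (-3.93) in 4, with 0.14 and -3.65 without FIP1 knockout distal library 3. Hoxb6 (-2.92) passed in 6, Igha (-4.69) in 3 and Ighg2c (-5.58) in 7, with the values given above.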

How the results depend on the processing

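The 1167 called genes became 682 without FIP1 knockout distal library 3 and 1133 without distal library 2, and lay between 778 and 1680 under the other settings. The 114 became 644 with no filter on low counts, 57 with at least 10 CPM in 3 libraries, 324 in DESeq2 and 53 in limma on log2(FPKM + 0.1), and 40 to 154 with a library left out. The 20 became 394 and 7 with those filters, 159 in DESeq2, 50 in a fit to the compared libraries alone, 56 in limma on log2(FPKM + 1) and 73 without its filter, and 1 to 60 with a library left out. The cause was not tested. Proximal and distal libraries with the same number correlated at 0.200, 0.175 and 0.0683 in their deviations from the group mean, each best with its own number; a replicate block gave 1594, 262 and 59 genes. Fut2 reversed to -0.0093 in limma on log2(FPKM + 1), with and without its filter, to -0.0094 with 0.1, and ranged from -0.048 to 0.27 with a library left out. Cd74 reversed to -0.039 in all 3 limma fits and ranged from -0.089 to 0.18. Neither was called. Of the named genes' values, 1183 with a library left out and 1733 under other settings kept direction and side of the threshold, 174 and 72 no longer passed, and 2 and 12 newly passed. With 3 libraries a group, genes at a few counts are the least precise.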

Other observations

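Calcium and metal transport genes were divided between the segments in FIP1 knockout: of 21 tested, 4 were higher in proximal and 3 in distal. Trpv6, the apical calcium channel, was at 0.0668, 0.286 and 0.261 CPM in proximal and 31.5, 19.7 and 19.5 in distal (-6.75 ± 0.83, adjusted p = 2.8e-05), while S100g, the calcium buffer of the same route, was at 142, 137 and 35.2 against 3.33, 7.34 and 4.14 (4.43 ± 0.70, adjusted p = 0.00033). The magnesium channel Trpm6 was at 24.6 to 55.1 against 140 to 187 CPM, and the manganese exporter Slc30a10 at 55.7 to 211 against 5.37 to 25.3. Of 23 retinoid genes 3 were higher in each segment. Aldh1a1, which makes retinoic acid, was at 488, 870 and 461 CPM against 62.4, 140 and 35.1 (2.94 ± 0.42), and Lrat, which stores retinol as ester, at 4.58 to 6.89 against 1.24 to 2.56, while Rdh16 (49.7 to 82.3 against 194 to 225) and the retinol carrier partner Ttr (0.859 to 1.35 against 6.98 to 14.5) were higher in distal.

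Of 34 junction genes 2 were called, the claudins Cldn4 (82.3 to 164 CPM in proximal, 39.2 to 57.4 in distal) and Cldn8 (8.52 to 37.2 against 103 to 189). Over all genes 6.6% were called, and neither this count nor that of the clock genes below is read as a result about its list. Tlr5, the flagellin receptor, was at 8.42, 5.37 and 5.53 against 1.64, 1.24 and 1.17 CPM (2.24 ± 0.35), and the inflammasome-related Nlrp10 at 0.654 to 1.36 against 4.26 to 9.63. Nfil3, a clock output factor, was the single called gene of 17 clock genes (5.88 to 7.37 against 2.14 to 3.06 CPM). Among wound-associated genes 5 of 34 were higher in each segment, with the growth factor Ereg (16.4 to 29.6 against 3.40 to 5.19 CPM) and Trim29 in proximal and Anxa8 (3.29 to 4.61 against 22.6 to 38.4) in distal. Of 32 colonocyte maturation genes 8 were higher in proximal and 3 in distal, Tmigd1 (253 to 522 against 49.7 to 122 CPM) and Emp1 (1990 to 2990 against 461 to 1260) among the first. Of 21 Rab11, Rab11-FIP and myosin V genes 2 were higher in distal and 0 in proximal in edgeR (4 and 4 at an unadjusted p under 0.05, 3 and 1 in DESeq2). Myo5c, a myosin motor of apical secretory vesicles, was at 208, 231 and 204 CPM against 410, 328 and 456 (-0.89 ± 0.17, adjusted p = 0.0021), and Rab11fip2 at 3.34, 6.37 and 4.45 against 5.57, 6.68 and 5.81 did not pass (-0.35 ± 0.27, adjusted p = 0.64). Prap1, a proline-rich secreted protein, was at 54.6, 53.9 and 26.1 CPM against 2.29, 3.87 and 0.432 (4.39 ± 0.54).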
